A study of Mus musculus with 6 samples.

Results

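Trp53 and 8 of its direct transcriptional targets were followed through the anterior and posterior pieces of 3 ETX-embryos. The 9 genes (Trp53, Mdm2, Cdkn1a, Ccng1, Bax, Phlda3, Perp, Bbc3 and Zmat3) were taken by exact name from a table of 12826 genes, and all 9 were present. The set was chosen by its FPKM levels in these same 6 libraries, and by directions that differ in embryo C, so the values are given as a description and no test of them is reported. Of the 9, 8 had a mean of at least 1 FPKM (fragments per kilobase of transcript, scaled to a fixed number of mapped fragments) over the libraries. Bbc3, at a mean of 0.686 FPKM, did not.

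ETX-embryos are embryo-like structures grown from mouse embryonic, trophoblast and extraembryonic endoderm stem cells. They were untreated and were made with a stem cell line carrying a GFP reporter of T (Brachyury), so all groups share that reporter. After the trophoblast part had been removed, the remaining part was cut lengthwise, and the piece without GFP was labelled anterior and the piece with GFP posterior. Each piece of embryos A, B and C gave 1 Smart-seq2 library (3 anterior, 3 posterior), and nothing in the labels gives an age.

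The p53 protein, the product of Trp53, is a transcription factor that is held at a low level by Mdm2, a ubiquitin ligase that p53 itself induces. When DNA is damaged or a cell is otherwise stressed, p53 escapes Mdm2 and raises genes that halt the cell cycle (Cdkn1a), start apoptosis (Bax, Bbc3, Perp) or restrain growth signals (Phlda3). In the mouse epiblast around gastrulation, p53 is known for taking part in the removal of damaged and less fit cells. It is regulated largely at the protein level, so the RNA of Trp53 is not a measure of p53 activity.

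p53 binds DNA at a response element made of a pair of 10-base units, and the windows around the start sites of the members were searched for it to show what such an element looks like in these genes. RefSeq windows (build GRCm38.p6, 250 bases before to 50 after a start) were held for 7 of the 9 genes. Allowing 1 mismatch to the p53 response element consensus over its 20 bases, with no spacer (the consensus reads the same on both strands), 0.0883% of 32851 windows held a match, among them those of Cdkn1a and Ccng1. Capitals mark the 20 bases, of which 19 match in each, and the sequence is written on the strand of the gene.
Cdkn1a: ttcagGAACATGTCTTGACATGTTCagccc
Ccng1: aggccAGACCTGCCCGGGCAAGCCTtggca
The Cdkn1a match lies at chr17:29090928-29090947 on the plus strand, from 51 to 32 bases upstream of the RefSeq start at 29090979. The Ccng1 match lies at chr11:40755462-40755481 on the minus strand, from 195 to 176 bases upstream of the start at 40755286. Both are upstream of the annotated genes. The libraries measure RNA and hold no measure of p53 at either place.

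The libraries differed in ways that touch the members. T had 5.03 and 15.6 FPKM in posterior A and B, and the table lists it at 0 in the anterior pieces of both. In embryo C, T went against the labels, with 42.5 FPKM in anterior C and 0 in posterior C. The sum over the other 9 primitive streak markers, among them Mixl1, Eomes, Nodal, Wnt3 and Fgf8, went with the labels in each embryo, at 0.127, 7.38 and 2.52 FPKM in the anterior pieces of A, B and C and at 317, 253 and 264 FPKM in the matched posterior pieces. Anterior A stood apart, with Spearman correlations across genes of 0.568 to 0.664 with the others, which correlated at 0.626 to 0.867 among themselves. These ranges overlap, and the difference in embryo A rests on anterior A as well as on posterior A. Depth, set to 1 in anterior A, reached 1.43 in the other anterior libraries at most and 1.56 to 2.83 in the posterior ones, and 9335 to 12141 genes were above 0. The library median over 10914 tested genes differed, posterior minus anterior, by 0.99, -0.07 and 0.55 in embryos A, B and C, on the log2(FPKM + 1) scale used below. Where 3 values are given for a domain, they stand in the order of embryos A, B and C. Directions are therefore also given after the median of each library was subtracted and, for the 8 members at or above 1 FPKM, after quantile normalization.

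Trp53 itself (chromosome 11, 69580359 to 69591873) was higher on the posterior side in each of the 3 embryos, under each of these scalings. Its level was 4.37, 4.52 and 5.85 in the anterior pieces and 6.69, 4.86 and 7.16 in the matched posterior pieces, or 19.7, 21.9 and 56.8 FPKM against 102, 28.1 and 142 FPKM. The groups overlap, because anterior C lies above posterior B. The mean level of Trp53 was 4.91 ± 0.82 over anterior and 6.24 ± 1.21 over posterior libraries (SD, n = 3), and the posterior minus anterior difference was 1.32 ± 0.99 (SD over 3 embryos), 1.33 without embryo C and 0.82 without embryo A. A posterior level above the anterior one in 3 of 3 embryos was found for 21.5% of the tested genes and for 1 of the 8 tested members, Trp53. A processed pseudogene, Trp53-ps on chromosome 17, is annotated, and reads shared with it could be counted for Trp53.

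The order of the libraries by Trp53 was close to their order by epiblast markers. The summed level of 10 markers of the epiblast, the embryonic layer of the structure, was 22.1, 76.5 and 310 FPKM in the anterior pieces and 414, 220 and 360 FPKM in the matched posterior pieces. Otx2 alone gave 156 FPKM of the sum in anterior C. The other 9 summed to 21.3, 48.6 and 154 FPKM in the anterior and to 364, 192 and 343 FPKM in the posterior libraries. Without Otx2, anterior C thus lay below posterior B, the reverse of their order by Trp53. Of the 10 markers, 7, 8 and 9 were above 0 in the anterior libraries and all 10 in each posterior library. Utf1 and Tdgf1 were at 0 in anterior A and B, Fgf5 also in anterior A, and Tdgf1 in anterior C. The part of cell composition in the Trp53 difference was not tested, and in bulk pieces fewer cells of a type and less RNA per cell cannot be told apart.

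**Figure D1:**
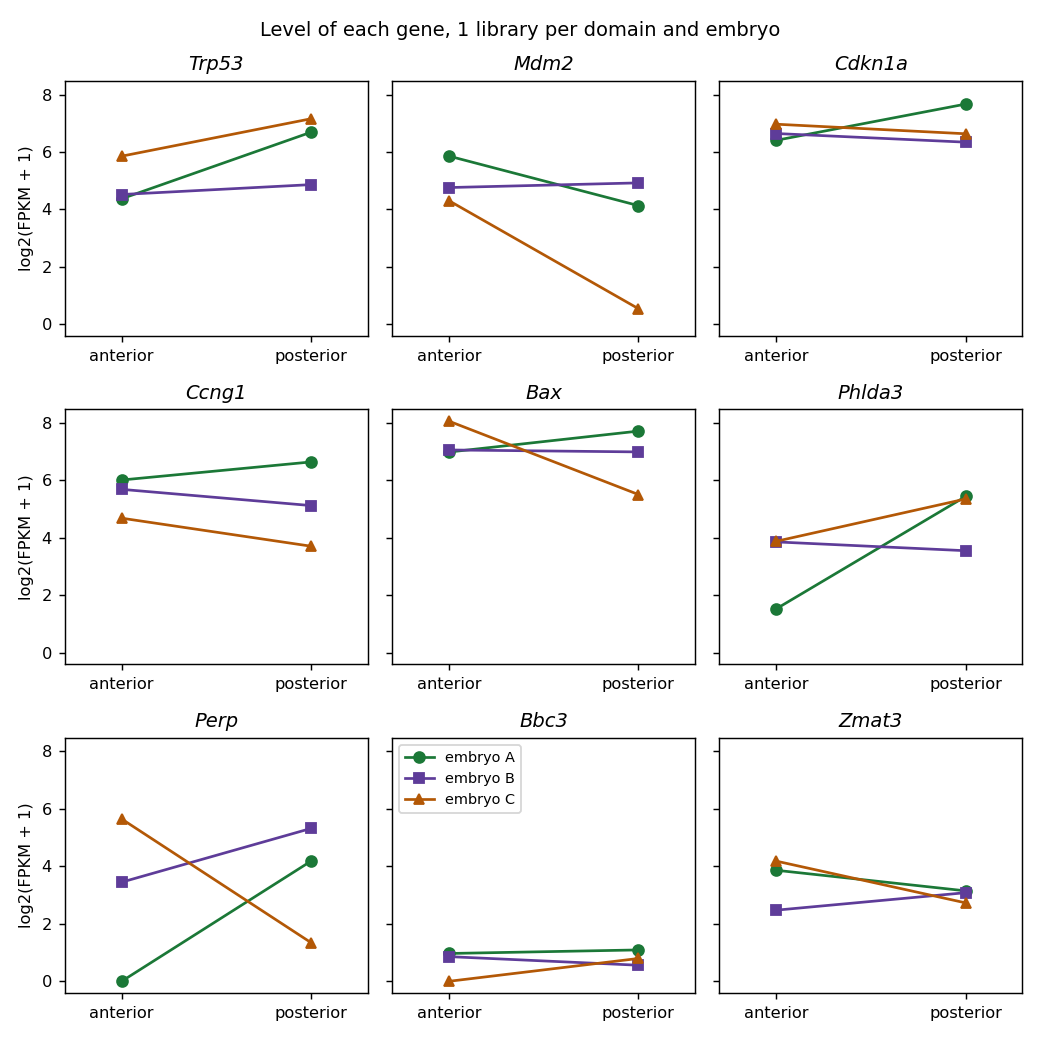
Levels in log2(FPKM + 1) (vertical axis) of the 9 genes, with the anterior and posterior library of embryos A (circles), B (squares) and C (triangles) joined by a line. The 3 Trp53 lines run upward to the posterior library, while Mdm2 ends at 0.55 in posterior C and Perp starts at 0 in anterior A.

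Mdm2 (chromosome 10, 117688875 to 117710758), the negative regulator of p53, ran the other way in embryos A and C. It stood at 5.86, 4.76 and 4.31 in the anterior pieces and at 4.13, 4.92 and 0.55 in the matched posterior pieces. The posterior C library was the low one, at 0.461 FPKM against 18.8 FPKM in anterior C, 40.8 times lower. In embryo A the posterior library was 3.44 times lower in FPKM, and in embryo B the posterior library was 1.12 times higher. These directions were the same under the 3 scalings. The domain means were 4.98 ± 0.80 and 3.20 ± 2.33 (SD, n = 3), with overlapping groups and a mean difference of -1.77 ± 1.96 (SD over 3 embryos). Without embryo C the mean difference was -0.78.

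Read against Trp53 in the same library, Mdm2 was lower in the posterior piece of each embryo, by a small margin in B. Mdm2 minus Trp53 was 1.49, 0.24 and -1.54 in the anterior pieces and -2.56, 0.06 and -6.61 in the matched posterior pieces, in log2. A factor that scales a whole library largely cancels in this difference. The 3 libraries with the highest Trp53 were the 3 with the lowest Mdm2, and in the other 3 libraries the Mdm2 level was above that of Trp53. Both genes were used to choose the members, so this opposition is a description of these 6 libraries.

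**Figure D2:**
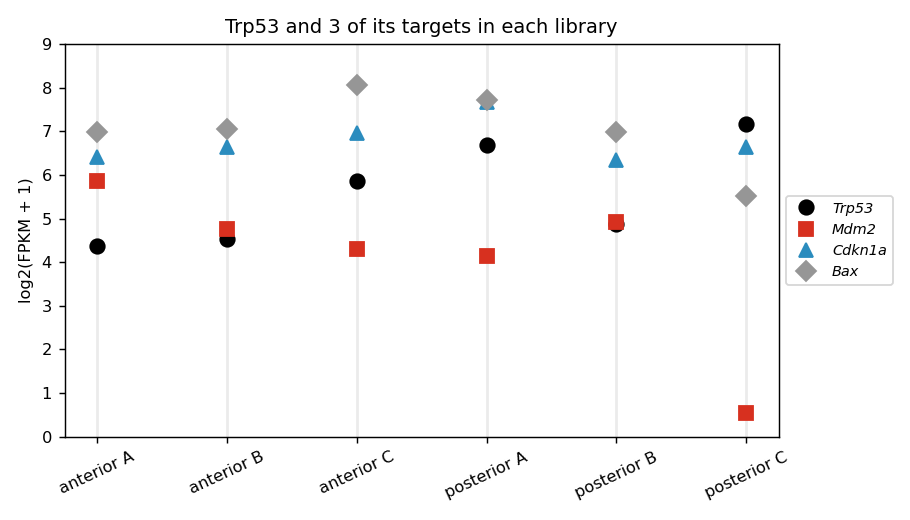
Levels of Trp53 (circles), Mdm2 (squares), Cdkn1a (triangles) and Bax (diamonds) in log2(FPKM + 1) in each of the 6 libraries. Mdm2 lies above Trp53 in anterior A, anterior B and posterior B and below it in the other 3 libraries (Mdm2 minus Trp53 of -6.61 in posterior C), while Cdkn1a stays between 6.34 and 7.67.

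Among the targets that act on the cell cycle, Cdkn1a (chromosome 17, 29090976 to 29100727), which encodes the cyclin-dependent kinase inhibitor p21, was abundant and steady. Its level was 6.40, 6.64 and 6.97 in the anterior pieces and 7.67, 6.34 and 6.63 in the matched posterior pieces, and in each library it stood between the 90.8th and the 95.8th percentile of the table. Posterior A was the high library, at 202 FPKM against 80.1 to 124 FPKM in the other 5. The SD over the 6 libraries was 0.49, where the 501 genes within 0.5 of its mean level had a median SD of 0.77. Posterior minus anterior, Cdkn1a differed by 1.26 (A), -0.30 (B) and -0.33 (C). These signs held under the other scalings, with embryo A at 0.27 after subtraction of library medians. The mean over embryos, 0.21 ± 0.91 (SD, n = 3), took the opposite sign after either rescaling and without embryo A (-0.32). A provisional transcript model on the opposite strand overlaps the gene, and whether the counting used strand was not stated.

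Ccng1 (chromosome 11, 40748552 to 40755311), which encodes cyclin G1, a partner of the phosphatase that acts on Mdm2, was lowest in embryo C and highest in embryo A in both domains. It stood at 6.01, 5.69 and 4.69 in the anterior pieces and at 6.64, 5.13 and 3.71 in the matched posterior pieces. The differences were 0.63, -0.57 and -0.98, and the first became -0.36 after library medians were subtracted and -0.08 after quantile normalization. The mean difference of -0.30 ± 0.83 (SD, n = 3) was 0.03 without embryo C.

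The targets that act in apoptosis differed in level. Bax (chromosome 7, 45461697 to 45466898), a pore-forming protein of the mitochondrial membrane, had the highest mean of the 9 genes. It stood at 6.99, 7.06 and 8.07 in the anterior pieces and at 7.72, 6.99 and 5.51 in the matched posterior pieces. Embryo C set both extremes, with 267 FPKM in anterior C and 44.6 FPKM in posterior C, 5.99 times lower. In embryos A and B the differences of 0.73 and -0.07 turned to -0.26 and 0.00 after library medians were subtracted, and to -0.13 and -0.11 after quantile normalization. The mean difference of -0.63 ± 1.71 (SD, n = 3) was 0.33 without embryo C. A read-through gene model, Gm45808, overlaps Bax on the same strand, and the counting could split their reads.

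Bbc3 (chromosome 7, 16308393 to 16318205), which encodes the BH3-only protein Puma that activates Bax, had the lowest level of the 9 genes on average. Its level was 0.97, 0.86 and 0 in the anterior pieces and 1.09, 0.56 and 0.80 in the matched posterior pieces, so no library exceeded 1.13 FPKM, and it stood between percentiles 12.3 and 39.3 of the table. Bax lay above it by 4.71 in posterior C and by 6.02 to 8.07 in the other libraries. At these levels a difference between the domains of Bbc3 was not detectable.

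Perp (chromosome 10, 18845020 to 18857073), a membrane protein of cell death that also serves in desmosomes of epithelia, varied most. The table lists it at 0 in anterior A, and it stood at 3.45 in anterior B and 5.65 in anterior C, against 4.19, 5.32 and 1.34 in the matched posterior pieces. It is the one tested member with the posterior library higher in A and B and the anterior library higher in C, a pattern that 15.0% of the tested genes had. In embryo B the posterior library was 3.93 times higher in FPKM, and in embryo C it was 32.0 times lower. These directions were the same under the 3 scalings. The SD over the 6 libraries was 2.24, higher than in 94.9% of tested genes, and the mean difference of 0.58 ± 4.39 (SD, n = 3) was 3.03 without embryo C and -1.22 without embryo A.

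Markers of other cell types also differed between libraries. The summed level of 16 markers of visceral endoderm, an epithelium around the epiblast, was 1465, 1761 and 136 FPKM in the anterior pieces and 1012, 3697 and 940 FPKM in the matched posterior pieces. Spink3 alone gave 3276 FPKM of the sum in posterior B. The other 15 summed to 980, 1457 and 125 FPKM in the anterior and to 258, 421 and 306 FPKM in the posterior libraries, lower in the posterior one in A and B and higher in C. Of the 16, 14, 14 and 5 were above 0 in the anterior libraries and 14, 16 and 12 in the posterior ones. Ttr, Rbp4, Apoa1, Amn, Cubn and Hnf4a were among those at 0 in anterior C, the library with the highest Perp. The 5 above 0 in anterior C were Lrp2 (6.75 in log2(FPKM + 1)), Foxa2 (4.22), Spink3 (3.59), Dab2 (0.61) and Gata6 (0.21). Lrp2 led the sum there and was at its highest level of the 6 libraries. Of all genes, 27.2% were at 0 in anterior C and 5.34% to 22.3% in the other libraries. The sum over 9 trophoblast markers was 43.3, 51.4 and 136 FPKM in the anterior and 17.1, 59.6 and 75.9 FPKM in the posterior libraries, with Elf5 at 0 in all 3 anterior libraries and in posterior C, and Gata3 gave 112 FPKM of the sum in anterior C. The sum over 11 parietal endoderm markers was 1120, 1951 and 321 FPKM in the anterior and 376, 342 and 791 FPKM in the posterior libraries, with 8 to 11 of them above 0. The part of these cell types in the Perp and Bax values was not tested.

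Phlda3 and Zmat3 act on growth signals and on RNA. Phlda3 (chromosome 1, 135766119 to 135769136), a competitor of Akt at the membrane, stood at 1.53, 3.86 and 3.88 in the anterior pieces and at 5.44, 3.55 and 5.36 in the matched posterior pieces. Anterior A was the low library, and posterior A and C were the high ones, as for Trp53. The posterior level was 22.6 times higher in embryo A and 2.91 times higher in embryo C in FPKM, and in embryo B the anterior level was 1.26 times higher, with the same signs under the 3 scalings. The mean difference was 1.69 ± 2.12 (SD, n = 3). Without anterior A and with no pairing it was 0.91.

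Zmat3 (chromosome 3, 32334792 to 32366014), a zinc finger RNA-binding protein, varied little. It stood at 3.87, 2.48 and 4.19 in the anterior pieces and at 3.15, 3.08 and 2.73 in the matched posterior pieces, with an SD of 0.66 over the 6 libraries against a median of 1.35 for 1998 genes of like level. The 3 posterior libraries lay within 0.42 of each other and inside the anterior range. The difference was -0.72 in A, 0.61 in B and -1.45 in C, with the same signs under the 3 scalings. The mean difference of -0.52 ± 1.05 (SD, n = 3) was -0.05 without embryo C.

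Across the 9 genes the levels per length ordered as Bax, Cdkn1a, Trp53, Ccng1, Mdm2, Phlda3, Perp, Zmat3 and Bbc3. Cdkn1a lay above Trp53 by 1.20 ± 0.97 (SD over 6 libraries), higher in 5 of 6, and Zmat3 lay above Bbc3 by 2.54 ± 0.93, in 6 of 6 and with no overlap of their ranges. The other 6 neighbouring pairs in that order did not differ by more than 1 SD of their difference, though Ccng1 was above Mdm2 in 6 of 6 libraries. Posterior C departed from the order, with Trp53 highest, Bax below Cdkn1a and Mdm2 lowest.

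The direction differed between embryos. Of the 9 genes, 7 were higher in the posterior library of embryo A, 4 in B and 3 in C, where 67.8%, 50.8% and 53.6% of the tested genes were higher in the posterior library. Over the 8 tested members, which leave out Bbc3, the counts were 6, 4 and 2. After subtraction of library medians the counts of the 9 were 4, 5 and 3, against 48.5%, 54.2% and 42.3% of tested genes. Those of the 8 were then 4, 5 and 2. The median difference of the 9 was 0.73 in A, -0.07 in B and -0.98 in C, beside 0.91, 0.02 and 0.17 over all tested genes. In embryo C, 4 members (Mdm2, Bax, Perp and Zmat3) were higher in the anterior library by over 1 in log2, which 21.8% of tested genes were, and 2 (Trp53 and Phlda3) were higher in the posterior library by over 1, which 34.7% of tested genes were. After subtraction of library medians 5 members (these 4 and Ccng1) were higher by over 1 in the anterior and 0 in the posterior library of C, where 31.1% and 26.9% of tested genes were, with Trp53 at 0.76 and Phlda3 at 0.93. These counts used the contrast by which the members were chosen. With 1 library per domain and embryo, the difference between embryos in the domain effect could not be tested.

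**Figure D3:**
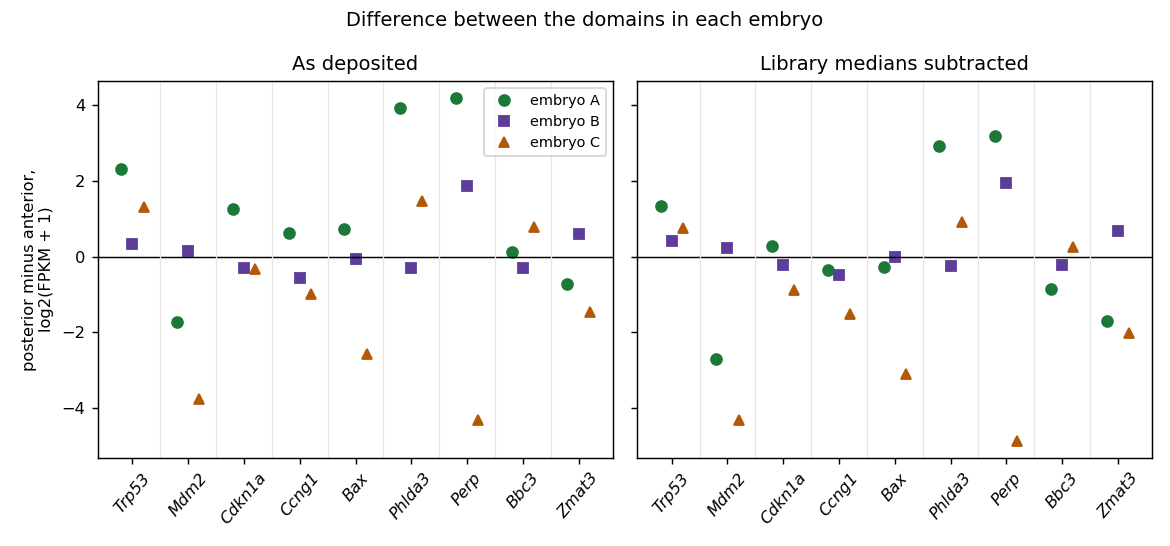
Posterior minus anterior difference in log2(FPKM + 1) for each gene in embryos A (circles), B (squares) and C (triangles), as deposited (left) and with the median of tested genes subtracted in each library (right). Trp53 is above 0 in the 3 embryos in both panels, and in embryo C Perp and Mdm2 lie lowest.

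Genes whose levels ran most like those of the members over the 6 libraries were sought among the tested genes by Pearson correlation, with no test. The nearest to Trp53 were Adprhl2 (r = 0.99), Gon4l (0.98) and Gpt (0.98). Acads (0.99), Ddt (0.98) and Shmt2 (0.98) were nearest to Cdkn1a, and Sec61a2 (0.99), Ank3 (0.99) and Hltf (0.98) to Mdm2. The 6 points share embryos in pairs, and 85, 26 and 102 genes exceeded r = 0.9 for Trp53, Cdkn1a and Mdm2.

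Other genes of the pathway were read from 5 lists, covering regulators of p53, further targets in 3 roles and the Bcl2 family, with 89 genes listed, 81 in the table and 75 tested. No gene passed the limma test at an adjusted p under 0.05 (0% of 10914 tested genes), and none of the 75 did. At an unadjusted p under 0.05, 5 of the 75 were higher in the posterior domain, against 7.24% of all tested genes, and 1 was higher in the anterior domain, against 0.788%. The median difference of the 75 was 0.44, beside 0.43 over all tested genes, and 16 were higher in the posterior library of 3 of 3 embryos, as were 21.5% of all tested genes. On average 48 of the 75 were higher in the posterior domain, as were 64.9% of all tested genes. Differences among embryos, by limma's F test, also passed for 0 genes, with an unadjusted p under 0.05 for 2.77% of tested genes and for 4 of the 75 (Sesn2, Abhd4, Gdf15 and Bid).

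Of the 19 regulators tested, 10 were on average higher in the posterior and 9 in the anterior domain, beside 64.9% higher in the posterior over all tested genes. Atr, the kinase that signals stalled replication to p53, was at 7.67, 7.60 and 7.11 in the anterior pieces and at 2.50, 4.78 and 6.46 in the matched posterior pieces, a difference of -2.88 ± 0.90 (SE; limma adjusted p = 0.551). The 3 anterior values lie above the 3 posterior ones, as they did for 3.77% of tested genes. Chek1, a kinase downstream of Atr, differed by 1.34 ± 0.92 and Kat5, an acetyltransferase of p53, by 1.06 ± 0.88 (SE; limma adjusted p = 0.686 and 0.739).

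Among 11 tested targets of the cell cycle arm, 8 were on average higher in the posterior domain (64.9% of all tested genes), with a list median of 1.86 in A, 0.23 in B and -0.91 in C. Btg2, an antiproliferative gene, stood at 1.89, 4.10 and 6.92 in the anterior pieces and at 6.66, 6.32 and 5.72 in the matched posterior pieces. Gtse1, which restrains p53 in late cell cycle phases, differed by 1.99 ± 0.96, Btg2 by 1.93 ± 1.07 and Sfn, the arrest protein 14-3-3 sigma, by 1.99 ± 1.11 (SE; limma adjusted p = 0.625, 0.647 and 0.647). A posterior level above the anterior one in A and B and below it in C, as seen for Perp, was found for 5 of the 11 (Btg2, Gadd45a, Sesn2, Psrc1 and Fbxw7), where 15.0% of tested genes had it, and for the same 5 after library medians were subtracted, where 17.0% of tested genes had it. Sesn2 was lower in posterior C by a small margin only, at -0.06 as deposited. Over the 5 lists the pattern was found for 14 of 75 genes (18.7%), or 18 of 75 with medians subtracted. It was not particular to the cell cycle arm, since 4 of 10 genes of the Bcl2 family had it (Bcl2, Bok, Bad and Bcl2l11). It was found for 2 of 19 regulators, 2 of 14 targets in cell death and 1 of 21 in repair and metabolism. With medians subtracted these 3 counts were 4, 3 and 2, and that of the Bcl2 family was 4 of 10.

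Of 14 tested targets in cell death, 11 were on average higher in the posterior domain (64.9% of all tested genes). Eda2r, a receptor of the TNF receptor family, stood at 0.20, 3.06 and 2.44 in the anterior pieces and at 4.05, 5.12 and 5.20 in the matched posterior pieces. The difference was 2.89 ± 0.93 (SE; limma adjusted p = 0.551), with no overlap between the domains, as for 12.3% of tested genes. Rps27l, a ribosomal protein paralogue, differed by 1.32 ± 0.59 and the receptor kinase Epha2 by 1.89 ± 0.87 (SE; limma adjusted p = 0.617 for both). Reads of Rps27l may be shared with Rps27, its near copy.

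In repair and metabolism, 14 of 21 tested targets were on average higher in the posterior domain (64.9% of all tested genes). Triap1, an inhibitor of apoptosis at the mitochondrion, was at 1.38, 0 and 0 in the anterior pieces and at 5.18, 4.41 and 2.43 in the matched posterior pieces (difference 3.54 ± 0.99, SE; limma adjusted p = 0.520). Gpx1, a peroxide-reducing enzyme, differed by 2.21 ± 0.89 and Pcna, the replication clamp, by 1.42 ± 0.65 (SE; limma adjusted p = 0.608 and 0.617).

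The Bcl2 family, through which Bax and Bbc3 act, had 5 of 10 tested genes on average higher in each domain, beside 64.9% higher in the posterior over all tested genes. Bcl2l1, which encodes the survival protein Bcl-xL, was at 1.93, 2.98 and 3.10 in the anterior pieces and at 4.37, 3.89 and 5.82 in the matched posterior pieces (difference 2.03 ± 0.90, SE; limma adjusted p = 0.617). Mcl1, another survival gene, stood between 5.70 and 6.98 in the 6 libraries and differed by 0.68 ± 0.67 (limma adjusted p = 0.775). Bid, a BH3-only activator of Bax, was at 0, 2.92 and 5.86 in the anterior pieces and at 3.78, 3.73 and 5.95 in the matched posterior pieces (limma adjusted p = 0.676). In embryo C, where Bax was 5.99 times lower in the posterior library, Bcl2l1 was higher there by 2.73 in log2, and Bak1 by 2.64. A rise of over 1 was found there for 34.7% of tested genes. Bcl2 itself differed by -3.51, posterior minus anterior, in the same embryo. Of the 10 tested genes, 5 were higher in the posterior library of C (53.6% of all tested genes), with a list median of -0.205.

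**Figure D4:**
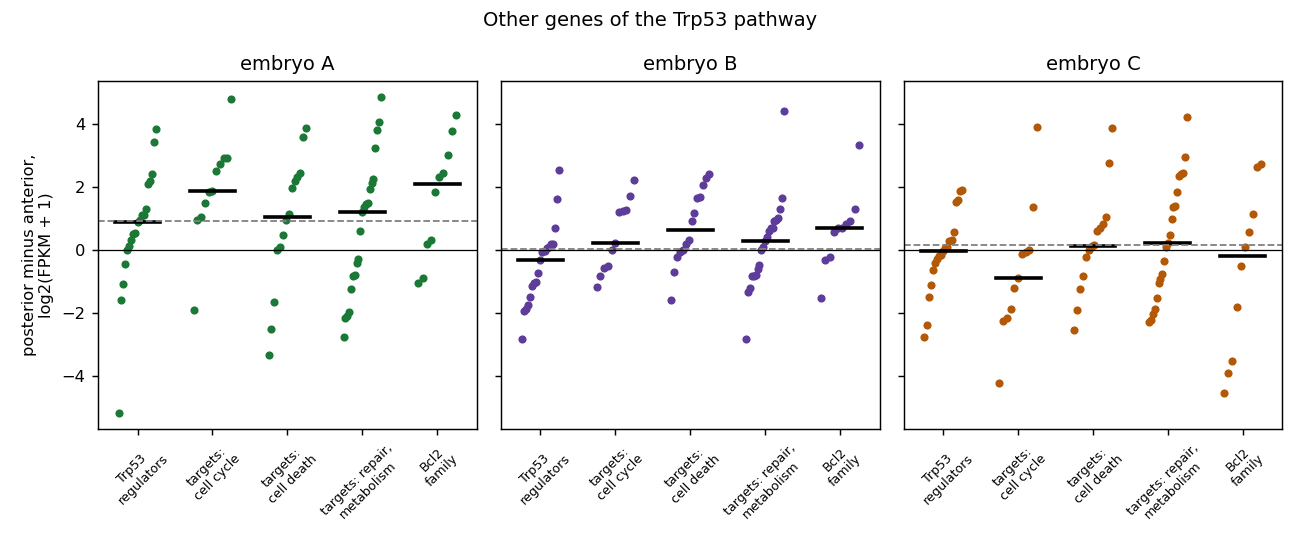
Posterior minus anterior difference in log2(FPKM + 1) in embryos A, B and C for the 75 tested pathway genes by list, 1 point per gene, with the list median (bar) and the median of all tested genes (dashed line). The median of the cell cycle targets is 1.86 in A, 0.23 in B and -0.91 in C.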

How the data were processed

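RNA of 3 anterior and 3 posterior pieces of embryos A, B and C was measured, with 1 library per piece. Per the labels' protocols, mapping was to the mouse genome of Ensembl 38.77 and HTSeq-count did the counting. Build mm10, Cufflinks 2.0.2 and TopHat2 2.0.4 come from the submitters' processing notes. Which of these gave the values was not stated. What the authors deposited are log2(FPKM + 1) values. The scale was read from the values, since 99.1% to 99.5% of entries above 3 gave FPKM of at most 6 significant digits as log2 and at most 0.84% as a natural logarithm. The planned test assumed this scale, and no further transformation was made.

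All genes averaging 1 FPKM or more were fitted with limma 3.58.1 in R 4.3.3 (mean-variance trend, embryo as a block, two-sided, Benjamini-Hochberg adjustment, threshold 0.05). The fit has 2 residual and 7.50 prior degrees of freedom. It was also run on simulated data, with less noise than these data and no differences between embryos. That run does not show how the fit performs here. The embryo is a block because both pieces come from 1 individual. The 2 pieces' deviations from their domain means correlated at -0.07, 0.04 and -0.03 in A, B and C. The p-values of the domain difference rest on how that difference varies between 3 individuals of 1 series. The variance of each gene is drawn toward a trend over all tested genes. Absolute depth is unknown. Relative depth came from the steps of whole reads among genes under 1 FPKM. Differences are on the log2(FPKM + 1) scale, which understates changes at low levels. Coordinates are from GENCODE M21, on the same build.

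The members and lists were chosen with earlier results of these data known. Named were the 9 members, T, the 3 genes per pathway list with the smallest p, and the 3 genes most like each of Trp53, Cdkn1a and Mdm2. Gene names given with a count of 5 or fewer, and Bak1, were chosen after their values were seen. Alternatives covered the block, filters at no minimum and 5 FPKM, pseudocounts of 0.1 and 5, median subtraction, quantile normalization and leaving out embryos or anterior A.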

Additional observations from a re-analysis of the deposited data

How the results depend on the processing

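No gene passed the limma adjusted p in any of the 11 alternatives. With the replicate block, 790 genes were higher in the posterior and 86 in the anterior domain at an unadjusted p under 0.05. The counts were 429 and 297 after median subtraction, 513 and 315 after quantile normalization, and 617 and 191 without anterior A and with no replicate block. Leaving out 1 embryo gave 348 to 898 and 36 to 140 (348 and 99 without A, 405 and 36 without B, 898 and 140 without C). Of the 75 pathway genes, 5 and 1 were counted with the block, 8 and 3 with no replicate block, 3 and 3 after either rescaling, 4 and 2 without anterior A, and 1 to 6 and 0 to 2 when 1 embryo was left out. Embryo A had 7 of 9 members higher in the posterior library as deposited and 4 of 9 after median subtraction. Of the 8 tested members, the mean difference changed sign in 0 of 11 alternatives for Trp53, Mdm2, Phlda3 and Zmat3, in 1 for Ccng1 and Bax (without embryo C), in 3 for Cdkn1a, and in 3 for Perp (without embryo A, without B, and without anterior A). Dropping only the replicate block, with all 6 libraries kept, or changing the filter leaves the mean difference of a tested member unchanged. Those alternatives could therefore not change a sign. Trp53 ranged from 0.82 to 1.81, Mdm2 from -2.74 to -0.78 and Phlda3 from 0.58 to 2.69. With 1 library per domain and embryo, and 13.6% to 27.2% of genes at 0 in the anterior libraries, little can be said of genes near 0, such as Bbc3.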
